A study of Mus musculus with 16 samples.

Results

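Flnc and Flna, which encode filamin C and filamin A, were followed in 16 RNA-seq libraries of brain cells sorted as microglia. They are 2 of the 21878 mRNAs in the expression tables and were found by gene symbol. The pair was chosen with the difference between EAE and PBS mice already known, so the levels of both genes in the 2 groups are described here without a test.

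Experimental autoimmune encephalomyelitis (EAE) is a mouse model of multiple sclerosis. All mice carried the wild-type (WT) genotype and, per the study's methods, were female C57BL/6 animals aged 8 weeks. The 8 EAE mice were immunized with MOG35-55, residues 35 to 55 of the myelin protein MOG, in complete Freund's adjuvant and given pertussis toxin, and the 8 PBS mice were injected with phosphate-buffered saline (whether with adjuvant or toxin is not given in the sources used here). Brains were taken at peak disease, 14 days after induction, cells with the surface phenotype CD11b+/CD45int were sorted, and each mouse gave 1 stranded, rRNA-depleted library.

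Filamins are large homodimers that crosslink actin filaments, with an actin-binding head followed by a long chain of immunoglobulin-like repeats. The chain anchors the tails of integrins and other receptors to the cortical cytoskeleton and serves as a docking platform for GTPases, kinases and chaperones. Filamin A is made by most cell types, leukocytes and platelets among them. Filamin C is best known from skeletal and cardiac muscle, where it sits at the Z-disc and the sarcolemma.

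Library totals ranged from 24587443 to 30244215 counts in EAE and from 26031889 to 34184576 counts in PBS. The sort label was set against marker lists. The 15 microglia markers, led by the complement genes C1qb and C1qa, were all detected in every library. Their summed level was 199 to 331 FPKM (fragments per kilobase of transcript, scaled to library size) in PBS and 215 to 349 FPKM in EAE. In the same libraries 10 neuron markers summed to between 1491 and 1817 FPKM, 9 astrocyte markers to between 1186 and 1810 FPKM, and 10 oligodendrocyte markers to between 940 and 1322 FPKM, so transcripts that mark other brain cells exceeded those of microglia in every library despite the gate. Library EAE 4 stood apart from the other EAE libraries in Flnc, and the values that rest on it are also given without it.

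Flnc lies on mouse chromosome 6 at chr6:29433153-29461889 (plus strand, GRCm38.p6), where its longest coding transcript in GENCODE has 48 exons and 8178 coding bases. Flna lies on the X chromosome at chrX:74223461-74249854 (minus strand), with 47 exons and 7941 coding bases. No other annotated gene overlapped either span. The 2 longest coding transcripts shared 0 stretches of 31 bases and 15 stretches of 20 bases, which is 0.166% of the 20-base stretches of Flnc. No stretch of 31 bases could therefore be assigned to both transcripts.

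The DNA just before each start site is shown because it lets the promoters of a muscle-type filamin and a widely used filamin be read side by side. The bases from 150 to 31 before the start in RefSeq (GRCm38.p6) are printed 5′ to 3′ on the coding strand, at chr6:29433003-29433122 for Flnc and chrX:74246565-74246684 for Flna. Capitals mark GC boxes (GGGCGG on either strand, overlapping matches merged). Neither stretch overlapped a GENCODE exon. That of Flna lies within the outer span of the gene.
Flnc: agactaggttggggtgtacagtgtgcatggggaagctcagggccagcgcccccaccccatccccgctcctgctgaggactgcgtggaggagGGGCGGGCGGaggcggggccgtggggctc
Flna: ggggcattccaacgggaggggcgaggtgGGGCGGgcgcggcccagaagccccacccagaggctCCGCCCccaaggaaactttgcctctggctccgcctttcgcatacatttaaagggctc

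Each stretch held 2 GC boxes, and each full window of 250 bases before these starts held 3. A GC box was present in 32.7% of the 32851 promoter windows of that length. The muscle element core MCAT (CATTCC, either strand) occurred in the Flna window, at position -146 from the start, and not in this Flnc window, against 12.6% of all windows. The AP-1 motif (TGANTCA, 6.75% of windows), the CArG box bound by serum response factor (1.47%) and the E-box (CANNTG, 66.2%) had no match in either window. G and C made up 64.0% of the Flnc window and 63.6% of the Flna window, and the median over all windows was 52.4%. A further RefSeq window for Flnc overlapped transcribed sequence and was not printed, and it held 1 MCAT core, at position -104 from its own start.

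Flnc was the filamin with the wider gap between the groups. In PBS mice its level was 1.01, 1.57, 1.26, 0.600, 2.04, 1.36, 2.06 and 2.09 FPKM in libraries 1 to 8. In EAE mice it was 3.98, 3.001, 4.09, 1.29, 3.13, 3.99, 4.11 and 4.41 FPKM in libraries 1 to 8. Thus 7 of 8 EAE libraries lay above the highest PBS library, and EAE 4 lay inside the PBS range, below the PBS median of 1.47 FPKM.

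The mean Flnc level was 3.50 ± 1.02 FPKM in EAE and 1.501 ± 0.547 FPKM in PBS (SD, n = 8 each), from 307 to 1036 counts per EAE library and 158 to 647 counts per PBS library. The fitted log2 fold change (log2FC, EAE against PBS) was 1.17 with a standard error of 0.23 and a 95% interval of 0.70 to 1.64, which is a fold of 2.25. Without EAE 4 the EAE mean was 3.82 ± 0.533 FPKM (SD, n = 7) and the log2FC was 1.29. In sorted tissue a bulk level cannot tell more cells that express a gene from more RNA per cell, and these could not be told apart for either filamin.

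Flna, the widely expressed filamin, was far more abundant and differed less. In PBS mice it measured 31.01, 25.0, 25.6, 24.8, 27.9, 27.1, 27.5 and 29.5 FPKM in libraries 1 to 8. In EAE mice it measured 36.7, 35.6, 33.8, 28.7, 33.6, 39.0, 37.3 and 37.3 FPKM. Again 7 of 8 EAE libraries exceeded every PBS library, and again EAE 4 was the lowest EAE library. PBS 1, the highest PBS library, and PBS 8 were the ones above EAE 4.

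The mean Flna level was 35.2 ± 3.19 FPKM in EAE and 27.3 ± 2.19 FPKM in PBS (SD, n = 8 each), from 5963 to 8783 counts per library. The log2FC was 0.32 with a standard error of 0.058 and a 95% interval of 0.20 to 0.44, a fold of 1.25. Without EAE 4 the EAE mean was 36.2 ± 1.96 FPKM (SD, n = 7) and the log2FC was 0.36. The log2FC of all tested mRNAs had a median of 0.01.

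**Figure D1:**
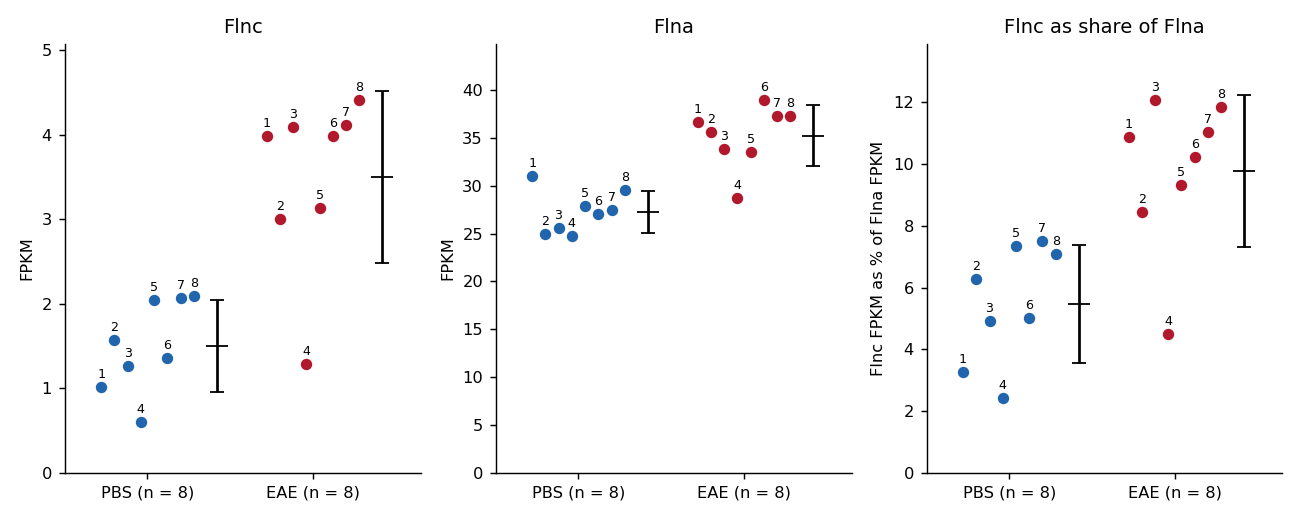
Points are the FPKM of Flnc (left) and Flna (middle) and Flnc FPKM as a percentage of Flna FPKM (right) in each library, numbered by replicate, with PBS in blue, EAE in red and bars showing mean ± SD (n = 8 each). In the left and middle panels 7 of 8 EAE libraries sit above every PBS library, and EAE 4 is the lowest EAE library in all 3 panels.

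Differentially expressed mRNAs (DEmRNAs) were defined by the study's thresholds, an adjusted p under 0.05 together with an absolute log2FC over 1. Counts of DEmRNAs come from the fit made here and are smaller than those the study reports in both directions. Of the 17885 mRNAs tested, 17 were DEmRNAs higher in EAE, which is 0.0951%, and Flnc was 1 of them. Flna was not, since its log2FC lay under 1. Both filamins passed the filter on low counts. All EAE libraries lay above all PBS libraries in 29 mRNAs, 0.162% of those tested (0.263% when either direction is counted), and EAE 4 kept both filamins out of that group. These counts use the contrast that chose the pair, and nothing is read from them.

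On the per-length FPKM scale Flna exceeded Flnc in all 16 libraries. Flnc stood at 5.48% ± 1.91 of the Flna level in PBS (SD, n = 8; lowest 2.42%, median 5.66%, highest 7.504%) and at 9.79% ± 2.46 in EAE (SD, n = 8; lowest 4.49%, median 10.5%, highest 12.1%). Without EAE 4 the EAE share was 10.5% ± 1.32 (SD, n = 7; lowest 8.43%). The lowest EAE share was again EAE 4, which lay inside the PBS range, and the lowest PBS share was PBS 4. Against all tested mRNAs, the mean level of Flna exceeded 89.0% of them in PBS and 92.4% in EAE, and that of Flnc exceeded 30.6% in PBS and 41.5% in EAE.

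The filamins also differed in how much they varied from mouse to mouse, a measure taken within groups. The coefficient of variation of Flnc was 36.4% in PBS and 29.2% in EAE, and that of Flna was 8.03% in PBS and 9.06% in EAE. The within-group SD of Flnc, 0.60 on the log2 scale of counts scaled to library size (CPM), exceeded that of 99.6% of the 2475 mRNAs whose mean level lay within 0.5 log2 units. For Flna the SD was 0.12, above 64.1% of 741 mRNAs of like level. Leaving out EAE 4 lowered the EAE coefficient of variation to 13.98% for Flnc and to 5.43% for Flna. The within-group SD was then 0.48 for Flnc, above 99.2% of 2493 mRNAs of like level, and 0.09 for Flna, above 42.4% of 739. With or without EAE 4, Flnc was among the most variable transcripts at its abundance. Part of this spread lay between sets of libraries. In PBS, Flnc was 2.04 to 2.09 FPKM in libraries 5, 7 and 8 and 0.600 to 1.57 FPKM in the others. How far such sets account for the spread was not tested.

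Flnc and Flna were compared across mice within each group, where the difference that chose the pair does not enter. In EAE the Pearson r of log2(FPKM + 0.1) was 0.889 and Spearman's rho was 0.667 (n = 8), with two-sided exact permutation p of 0.0132 and 0.0831. Adjusted over the 42 within-group relations computed, the exact permutation p for r was 0.0598. The relation rested on EAE 4, and without it r was 0.508 (n = 7, exact permutation p = 0.239). In PBS r was 0.328 and rho was 0.405 (n = 8, exact permutation p = 0.433 and 0.327). Leaving out the 2 libraries with the most extreme Flna gave r of 0.527 in EAE and 0.721 in PBS (n = 6 each).

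**Figure D2:**
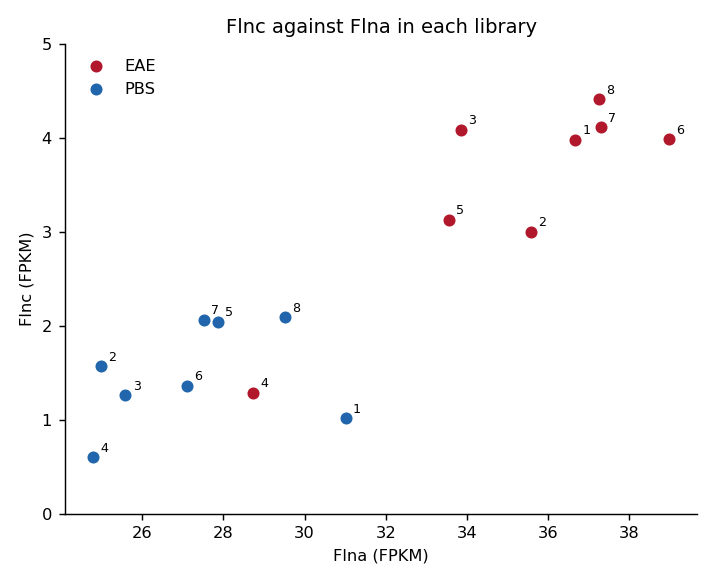
Each point is 1 library placed by its Flna level (x axis, FPKM) and its Flnc level (y axis, FPKM, from 0), with EAE in red, PBS in blue and replicate numbers beside the points. EAE 4, at 28.7 FPKM of Flna and 1.29 FPKM of Flnc, lies among the PBS libraries.

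Marker lists of other cell types were then set beside Flnc. Neutrophil markers, which include granule proteins and the calprotectin genes S100a8 and S100a9, moved with it. Their summed level was 19.8 to 58.0 FPKM in PBS and 51.0 to 102 FPKM in EAE. All 12 listed markers were measured and 4 of them, Ngp, Ltf, S100a8 and S100a9, were DEmRNAs higher in EAE, against 0.0951% of all tested mRNAs. Ltf, Elane and Mmp8 had no count in some libraries. The 2 most abundant were Lcn2 (log2FC 0.31, SE 0.21, edgeR adjusted p = 0.478) and S100a8 (log2FC 1.33, SE 0.28, edgeR adjusted p = 0.0169). Lcn2 alone averaged 31.04 FPKM in EAE and 24.1 FPKM in PBS, so the sum is not read as a level of neutrophils. Relations of the filamins to the sum without Lcn2 were not tested.

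Across mice, Flnc tended to be higher where the neutrophil sum was higher in both groups. In PBS r was 0.902 and rho was 0.762 (n = 8, exact permutation p = 0.00494 and 0.0368), and in EAE r was 0.778 and rho was 0.690 (n = 8, exact permutation p = 0.00486 and 0.0694). Both r had an adjusted exact permutation p of 0.0598, which misses the 0.05 threshold. Without EAE 4 the EAE r was 0.918 and rho was 0.536 (n = 7, exact permutation p for r = 0.0224). Without the 2 most extreme neutrophil sums r was 0.894 in PBS and 0.837 in EAE (n = 6 each). EAE 4, with the lowest Flnc of the EAE group at 1.29 FPKM, had a neutrophil sum of 50.98 FPKM. EAE 2 had nearly the same sum, 51.1 FPKM, with Flnc at 3.001 FPKM. For Flna and neutrophil markers r was 0.764 in EAE (n = 8, exact permutation p = 0.0141, adjusted 0.0598) and rho was 0.905 (n = 8, exact permutation p = 0.00456, adjusted 0.0479). Without EAE 4 that r was 0.678 (n = 7, exact permutation p = 0.104). In PBS r was 0.288 and rho was 0.143 (n = 8, exact permutation p = 0.496 and 0.752). The part of neutrophil RNA in the Flnc or Flna levels was not tested. PBS 5, PBS 7 and PBS 8, which resembled each other in earlier results of these data, had the highest Flnc in PBS (2.04, 2.06 and 2.09 FPKM). Their neutrophil sums were 55.2, 56.1 and 55.3 FPKM. The permutation treats all libraries of a group as alike, and the part of such a set in the correlations was not tested.

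Striated muscle markers, the class in which filamin C is best known, were low. The 17 listed genes, led by Acta1 and Tnnt2, summed to 11.1 to 14.8 FPKM in PBS and 11.6 to 17.1 FPKM in EAE. Neither of the leading genes passed the test (Acta1 log2FC 0.04, edgeR adjusted p = 0.918; Tnnt2 log2FC 0.46, edgeR adjusted p = 0.148), nor did any of the others (2 of 17 at an unadjusted p under 0.05, against 17.4% of all tested mRNAs), and Tnnt3, Tnnc2 and Tnni2 had no count in some libraries. Within EAE the r of Flnc with this sum was 0.905 (n = 8, exact permutation p = 0.0120) and without EAE 4 it was 0.552 (n = 7, exact permutation p = 0.200). Within PBS r was 0.704 (n = 8, exact permutation p = 0.0524), and it was -0.06 without the 2 most extreme libraries (n = 6). No adjusted p passed the threshold.

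Smooth muscle and pericyte markers, a further filamin-rich class, summed to 48.1 to 64.7 FPKM in PBS and 47.1 to 66.5 FPKM in EAE. Of 13 markers 0 rose and 1 fell, the pericyte-enriched gene Vtn (log2FC -0.47, SE 0.12, edgeR adjusted p = 0.0400). At an adjusted p under 0.05, 0.654% of all tested mRNAs rose and 1.76% fell. Rgs5, the next most abundant, had a log2FC of -0.18 (edgeR adjusted p = 0.470). The r of Flnc with this sum was -0.586 in EAE and 0.657 in PBS (n = 8 each, exact permutation p = 0.122 and 0.0761), it was -0.350 in EAE without EAE 4 (n = 7, exact permutation p = 0.484), and the difference between the groups was not tested. Endothelial markers, led by Cldn5 and Ly6c1, summed to 47.9 to 78.4 FPKM in PBS and 54.2 to 81.8 FPKM in EAE, and none of the 12 passed the test, with or without adjustment. With Flnc in PBS, r was 0.828 (n = 8, exact permutation p = 0.00858, adjusted 0.0598) and rho was 0.905 (n = 8, exact permutation p = 0.00456, adjusted 0.0479), so rho passed the threshold and r did not. In EAE r was -0.105 and rho was -0.05 (n = 8, exact permutation p = 0.742 and 0.935), and r was -0.282 without EAE 4 (n = 7, exact permutation p = 0.526).

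The sum of the fibroblast and meningeal list, led by Pdgfra and Igf2, ran against Flna in both groups. Pdgfra alone averaged 13.5 FPKM in EAE and 14.4 FPKM in PBS, so the sum is not read as a level of fibroblasts. The r of the sum with Flna was -0.958 in EAE (n = 8, exact permutation p = 0.000942, adjusted 0.0396) and -0.852 in PBS (n = 8, exact permutation p = 0.00898, adjusted 0.0598). Without EAE 4, whose sum of 51.6 FPKM was the highest of all libraries, the EAE r was -0.846 (n = 7, exact permutation p = 0.0181). For Flnc the corresponding r was -0.927 in EAE and -0.473 in PBS (n = 8 each, exact permutation p = 0.0142 and 0.239), and it was -0.533 in EAE without EAE 4 (n = 7, exact permutation p = 0.221). None of the 9 markers passed the test between groups (2 at an unadjusted p under 0.05, against 17.4% of all tested mRNAs), and their part in the filamin levels was not tested. Oligodendrocyte markers also ran against Flna, with r of -0.666 in EAE and -0.791 in PBS (n = 8 each, exact permutation p = 0.0747 and 0.0200), as did astrocyte markers, with r of -0.733 in EAE and -0.535 in PBS (n = 8 each, exact permutation p = 0.0415 and 0.169). Neither list had an adjusted p under the threshold.

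Microglia markers did not rise with the filamins from mouse to mouse. With Flnc in EAE, r was -0.647 (n = 8, exact permutation p = 0.0451, adjusted 0.126) and rho was -0.905 (n = 8, exact permutation p = 0.00456, adjusted 0.0479), so that the call depended on the measure. Without EAE 4 these were -0.739 and -0.857 (n = 7, exact permutation p for r = 0.0687). In PBS r was -0.463 and rho was -0.119 (n = 8, exact permutation p = 0.246 and 0.793). Their r with Flna was -0.744 in EAE and -0.652 in PBS (n = 8 each, exact permutation p = 0.0197 and 0.0761), and -0.769 in EAE without EAE 4 (n = 7, exact permutation p = 0.0518). Of the 15 microglia markers only Trem2, a lipid-sensing receptor, passed the test between groups (log2FC 0.56, SE 0.13, edgeR adjusted p = 0.0282). The same threshold was passed by 2.42% of all tested mRNAs. C1qb and C1qa had a log2FC of 0.11 and 0.16 (edgeR adjusted p = 0.634 and 0.551). Among the remaining lists, 0 of 10 monocyte and macrophage markers and 0 of 10 oligodendrocyte markers passed (1 and 3 at an unadjusted p under 0.05). The monocyte and macrophage sum had r of 0.712 with Flnc in PBS (n = 8, exact permutation p = 0.0481, adjusted 0.126). There rho was 0.762 (exact permutation p = 0.0368, adjusted 0.128). In EAE r was -0.258 (n = 8, exact permutation p = 0.549), and without EAE 4 it was 0.649 (n = 7, exact permutation p = 0.137). Of 9 astrocyte markers 1 rose, Gfap (log2FC 0.50, edgeR adjusted p = 0.0312), whereas the other 8 had a log2FC below 0 and did not pass. The astrocyte median was -0.21, and 7 of 9 reached an unadjusted p under 0.05, against 17.4% of all tested mRNAs.

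**Figure D3:**
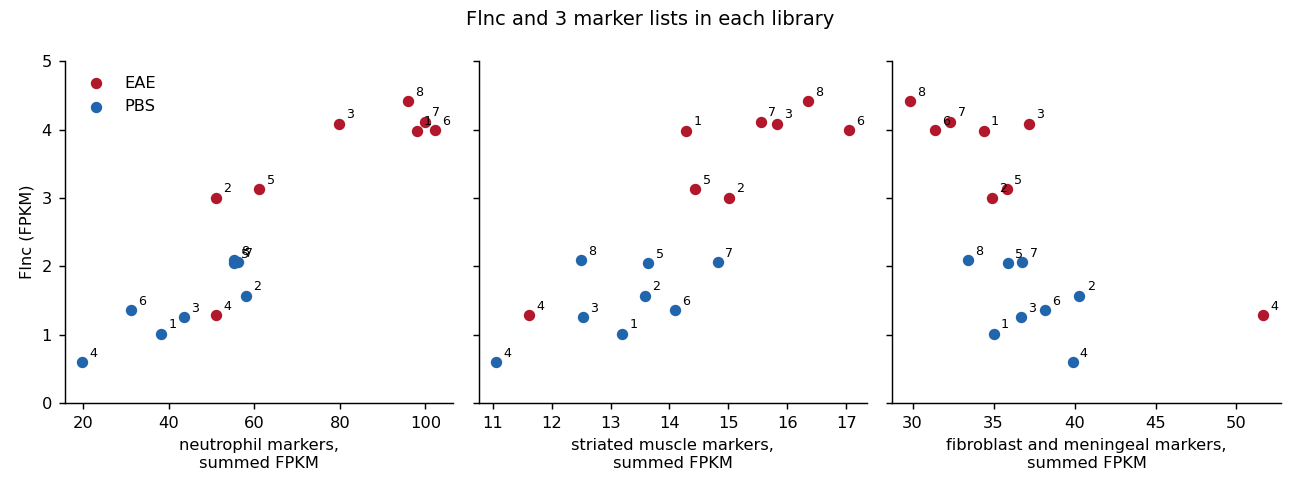
Flnc (y axis, FPKM) is plotted against the summed FPKM of neutrophil (left), striated muscle (middle) and fibroblast and meningeal markers (right, x axes not from 0) in each library, with EAE in red, PBS in blue and replicate numbers beside the points. Neutrophil sums run from 19.8 to 102 FPKM, striated muscle sums from 11.1 to 17.1 FPKM, and EAE 4 is set apart on the right at 51.6 FPKM.

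The genes whose profile over all 16 libraries was most like that of each filamin were listed as a description, by Pearson r of log2 CPM among 15920 mRNAs. Such a profile contains the difference between groups, so r within each group is given too. Nearest to Flnc was Nes, which encodes the intermediate filament protein nestin, with r of 0.962 over 16 libraries, 0.960 within EAE and 0.912 within PBS. Slk, a kinase that acts on the cytoskeleton, had r of 0.958 (0.929 within EAE, 0.934 within PBS). Tnc, the extracellular matrix protein tenascin C, had r of 0.945 (0.872 within EAE, 0.906 within PBS).

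The next were Cd93, a receptor of endothelial and myeloid cells, at 0.940, the interferon-induced gene Ifit3b at 0.937 and Gm15455 at 0.937. The neutrophil granule gene Ngp, Ddx58 (the RNA sensor RIG-I), Lgals3 (galectin-3) and S100a9 completed the 10 nearest, with r between 0.931 and 0.933. Within EAE the r of the 10 ran from 0.853 to 0.960, and without EAE 4 from 0.335 (Cd93) to 0.854 (S100a9), with Nes at 0.758, Slk at 0.395 and Tnc at 0.441. Of these 10, Nes, Tnc, Ngp, Ddx58, Lgals3 and S100a9 rose in EAE in the edgeR test, against 0.654% of all tested mRNAs. The 10 were picked by a profile that holds the group difference, so nothing is read from this count or from their tests. Nes had a log2FC of 0.65 (SE 0.16, edgeR adjusted p = 0.0333), and Tnc had a log2FC of 0.49 (SE 0.089, edgeR adjusted p = 0.00741). Slk, whose profile was nearly as close, had a log2FC of 0.13 (SE 0.046, edgeR adjusted p = 0.135).

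Nearest to Flna was Lca5l with r of 0.957 (0.944 within EAE, 0.879 within PBS), followed by Dgat1, an enzyme of triglyceride synthesis, at 0.935 and Ngp at 0.931. Ccdc142, A230050P20Rik, the interferon signalling factor Stat2, the cation channel gene Trpm4, Pcsk4 and the transcription factor genes Ubp1 and Elk3 followed, with r from 0.929 down to 0.895. Within EAE the r of these 10 ran from 0.790 to 0.972, and without EAE 4 from 0.648 to 0.965. Ngp was the gene that stood in both lists, and within PBS its r was 0.806 with Flnc and 0.455 with Flna. By the same measure the 2 filamins had r of 0.847 with each other, which placed Flna at rank 62 among the neighbours of Flnc and Flnc at rank 67 among those of Flna.

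The chromosomal neighbours were looked up after the filamin values were known. Ccdc136 and Atp6v1f, which flank Flnc, had a log2FC of 0.18 (SE 0.084, edgeR adjusted p = 0.281) and -0.14 (SE 0.075, edgeR adjusted p = 0.331). Tktl1 and Emd, which flank Flna, had a log2FC of 0.82 (SE 0.35, edgeR adjusted p = 0.228) and 0.01 (SE 0.083, edgeR adjusted p = 0.970). None of the 4 passed the test, and Tktl1 was close to undetected at 0.245 ± 0.121 FPKM in EAE and 0.134 ± 0.0492 FPKM in PBS (SD, n = 8 each).

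Partners of the filamins were taken from 6 lists arranged by role, with 79 names, of which 75 were tested. None was a DEmRNA in edgeR or in DESeq2, against 0.117% of all tested mRNAs. At an adjusted p under 0.05 alone 0 rose and 2 fell, Hspa8 and Actn2, which is 2.67% against 2.42% of all tested mRNAs (0.654% rose and 1.76% fell). At an unadjusted p under 0.05, which 17.4% of all tested mRNAs reached, there were 16, and 44 of the 75 had a log2FC above 0 against 52.7% of all mRNAs. The median log2FC over the lists was 0.02, and that of all tested mRNAs was 0.01.

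Surface receptors that filamins hold to actin came first. Of 7 tested, 0 passed the test in either direction (1 at an unadjusted p under 0.05), and their median log2FC was 0.22. Itgb1, the beta 1 integrin chain, measured 20.3 ± 0.794 FPKM in EAE and 19.6 ± 1.24 FPKM in PBS (SD, n = 8 each; edgeR adjusted p = 0.981). Drd2, a dopamine receptor that binds filamin A, measured 10.1 ± 1.32 FPKM in EAE and 11.7 ± 2.03 FPKM in PBS (SD, n = 8 each; edgeR adjusted p = 0.155).

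Muscle partners of filamin C, which are sarcoglycans, Z-disc proteins and Xin repeat proteins, numbered 14. None passed the test, the median log2FC was 0.09 and 2 reached an unadjusted p under 0.05. The most abundant were Sgcd, delta-sarcoglycan, at 4.08 ± 0.505 FPKM in EAE and 3.73 ± 0.475 FPKM in PBS (SD, n = 8 each; edgeR adjusted p = 0.659), and Synpo2, a Z-disc protein, at 3.19 ± 0.350 FPKM and 3.22 ± 0.442 FPKM (SD, n = 8 each; edgeR adjusted p = 0.743).

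Damaged filamin is removed by a chaperone complex built around BAG3. Of the 6 genes of that route Hspa8, the constitutive Hsc70 chaperone, fell from 393 ± 34.9 FPKM in PBS to 334 ± 27.6 FPKM in EAE (SD, n = 8 each; log2FC -0.28, SE 0.061, edgeR adjusted p = 0.0175). The other 5 did not pass the test, and the median log2FC of the 6 was -0.04. At an unadjusted p under 0.05 there were 3 of 6, against 17.4% of all tested mRNAs. Besides Hspa8 these were Hspb1 (log2FC 0.56, edgeR adjusted p = 0.158) and Sqstm1 (log2FC -0.22, edgeR adjusted p = 0.104), which moved in opposite directions. Hspa8 serves many clients besides filamins.

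Regulators and signalling partners, among them small GTPases, their kinases, calpains and refilins, numbered 14 and 0 passed the test (1 at an unadjusted p under 0.05), with a median log2FC of -0.06. The most abundant were Rac1, a GTPase, with a log2FC of -0.11 (SE 0.047, edgeR adjusted p = 0.210) and Pak1, a kinase it activates, with a log2FC of -0.09 (SE 0.046, edgeR adjusted p = 0.342).

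Actin-binding proteins with a head of the same kind, such as actinins, plastins, spectrins and plectin, numbered 19, with a median log2FC of 0.02. Actn2, the actinin of muscle Z-discs and of synapses, fell from 11.96 ± 0.710 FPKM in PBS to 10.4 ± 1.01 FPKM in EAE (SD, n = 8 each; log2FC -0.25, SE 0.061, edgeR adjusted p = 0.0295). The others did not pass, and 6 of the 19 reached an unadjusted p under 0.05, against 17.4% of all tested mRNAs. The Actn2 call was lost when any of EAE 2, EAE 3, EAE 6, PBS 2 or PBS 7 was left out, with an edgeR adjusted p from 0.0502 to 0.0671. Of the 10 neuron markers, which were abundant in all libraries, 0 rose and 2 fell, against 0.654% and 1.76% of all tested mRNAs. The 2 were Syt1 (log2FC -0.28, edgeR adjusted p = 0.0326) and Gad1 (log2FC -0.53, edgeR adjusted p = 0.00306). The part of neuron markers in the Hspa8 and Actn2 values was not tested.

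Serum response factor, its coactivators and the contractile genes it drives gave 15 tested genes, of which 0 passed the test (3 at an unadjusted p under 0.05), with a median log2FC of 0.04. Mkl2 and Mkl1, the coactivators, were the most abundant, with a log2FC of 0.04 and 0.01 (edgeR adjusted p = 0.736 and 0.971).

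**Figure D4:**
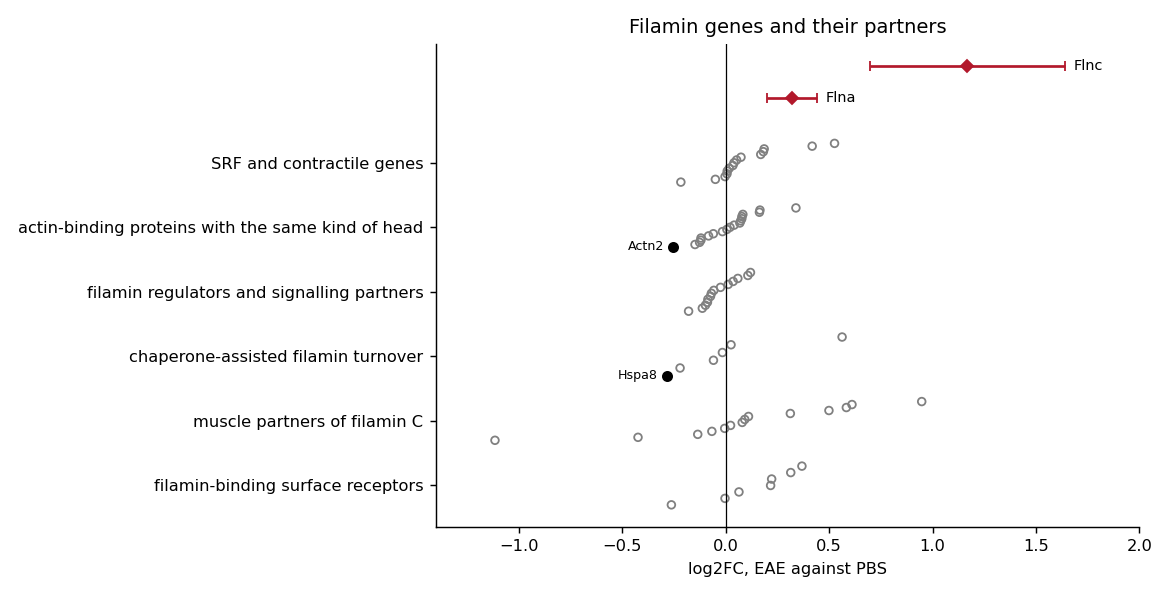
Each open circle is the log2FC (x axis, EAE against PBS) of 1 of the 75 tested partner genes, arranged by list (y axis); filled black points passed an adjusted p under 0.05. Red diamonds show Flna (0.32) and Flnc (1.17) with 95% intervals; Hspa8 and Actn2, both below 0, are the 2 filled points.

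The sizes of both filamin differences were followed over the ways of fitting. A set of 6 libraries (EAE 6, EAE 7, EAE 8, PBS 5, PBS 7 and PBS 8) had resembled each other in earlier results of these data. The Flnc log2FC was 0.98 (SE 0.069) in that set alone, and it was 1.34 (SE 0.27) among the remaining 5 EAE and 5 PBS libraries. The Flna log2FC was 0.39 (SE 0.033) and 0.27 (SE 0.075) in the same fits. The labels name no batch, and correlations were not computed within these sets, which hold at most 5 libraries of a group. Within EAE, libraries EAE 6, EAE 7 and EAE 8 had the lowest microglia sums (234, 236 and 215 FPKM). They also had the lowest fibroblast and meningeal sums (31.4, 32.3 and 29.8 FPKM) and the highest neuron sums (1645, 1710 and 1713 FPKM). The part of this set in the within-group correlations was not tested. Over the 16 fits that left out 1 library, the Flnc log2FC ran from 1.05 without PBS 4 to 1.29 without EAE 4.

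**Figure D5:**
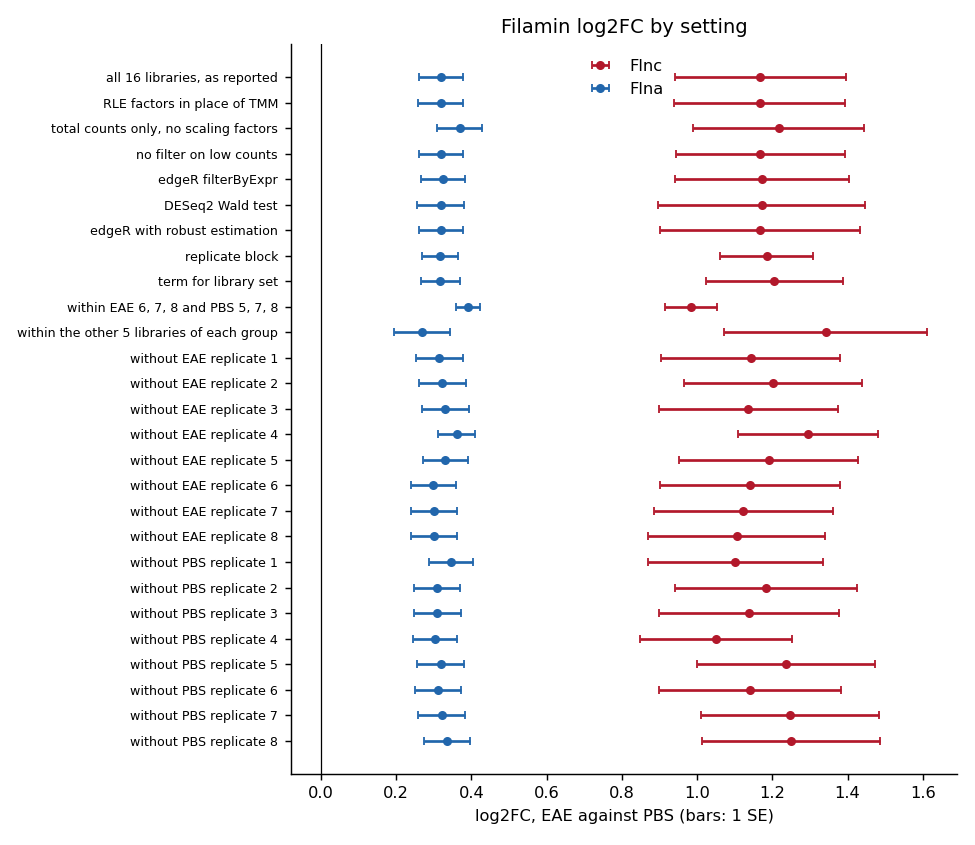
The log2FC (x axis, EAE against PBS, bars 1 SE) of Flnc (red) and Flna (blue) is plotted for each way of fitting (y axis). Flnc ranges from 0.98 to 1.34 and Flna from 0.27 to 0.39, and all values lie above 0.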

How the data were processed

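Per the study's methods and the labels, stranded total RNA libraries depleted of rRNA were sequenced as paired reads and aligned to GRCm38, and the submitters' processing notes name HISAT2 2.1.0, HTSeq 0.11.2 and DESeq2 1.22.2. The authors deposited raw read counts per mRNA and FPKM. The deposited FPKM of both filamins equalled CPM divided by 1 fixed length per gene (9.166 kb for Flnc, 8.569 kb for Flna), with no scaling factor. Groups came from the sample titles.

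From the counts, mRNAs with a total of at least 16 were fitted with the quasi-likelihood test of edgeR 4.0.16 (TMM scaling, R 4.3.3) and adjusted by the Benjamini-Hochberg method over all 17885; for the filamins log2FC, standard error and interval are descriptions. In simulated counts of 17799 genes with 200 changed by 1.5 log2 units, the fit recovered 98% of them. The simulated spread between mice followed the trend over all genes, with no outlying library. At the level of Flnc that trend is a coefficient of variation of 0.121, against 0.313 fitted for Flnc itself. Recovery of genes as variable as Flnc was not simulated. Correlations used log2(FPKM + 0.1) with exact permutation of the 8 libraries of a group. DESeq2 1.42.0 was an alternative.

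The members and lists were chosen with earlier results of these data known. Named by rule were list genes with adjusted p under 0.05 (up to 4), otherwise the 2 with the highest mean FPKM, and the 10 nearest profiles. Values without EAE 4, apart from refits, were chosen after seeing the data. Alternatives are given in the closing section.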

Additional observations from a re-analysis of the deposited data

Results flagged for a closer look

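In EAE, the Flnc level of library EAE 4, 1.29 FPKM, lay farther below the other 7 EAE libraries than Dixon's criterion for an outlier at the 95% level allows, the gap to the next library being 0.548 of the whole range. In the same library the summed level of fibroblast and meningeal markers, 51.6 FPKM, lay above the other EAE libraries by 0.663 of the range. Of 26 groups of 8 libraries examined, these were the 2 that met the criterion, and chance alone gives about 1 in 20. Whether the 2 values have a common source was not tested. PBS 4 did not meet the criterion, but it was extreme within PBS in several values. It had the lowest Flnc (0.600 FPKM), Flna (24.8 FPKM) and neutrophil sum (19.8 FPKM), and the highest microglia sum (331 FPKM). Correlations within PBS were not computed without PBS 4 alone.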

How the results depend on the processing

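Flnc and Flna were higher in EAE in all fits, with a log2FC from 0.98 to 1.34 for Flnc and from 0.27 to 0.39 for Flna. With 1 library left out in turn, Flnc ran from 1.05 to 1.29 and Flna from 0.30 to 0.36. Total-count scaling moved the median log2FC of all mRNAs to 0.06.

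The counts of mRNAs depended more on the setting. DEmRNAs numbered 17 higher and 4 lower in EAE. The lower count was 1 with total counts only, with filterByExpr, with the replicate block and within the other 5 libraries of each group. The higher count was 34 with a term for the library set and 5 within the other 5 libraries. Within EAE 6, 7, 8 and PBS 5, 7, 8 it was 104 higher and 73 lower. At an adjusted p under 0.05 alone, 899 mRNAs passed in DESeq2, 768 with the library-set term, 4147 within that set and 13 within the other 5, against 432. Leaving out 1 library gave 11 to 45 DEmRNAs higher (45 without EAE 4, 11 without EAE 8) and 1 to 7 lower, and 144 to 1317 mRNAs at an adjusted p under 0.05.

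Among partner genes 0 rose and 2 fell. With total counts only, 1 rose (Actn1) and 1 fell. Within EAE 6, 7, 8 and PBS 5, 7, 8, 11 rose and 10 fell, and within the other 5 libraries 0 fell, Hspa8 having an edgeR adjusted p of 0.275 and Actn2 of 0.216. Leaving out 1 library gave 0 to 3 that rose and 1 to 3 that fell. No partner was a DEmRNA in any fit. The cause of these changes was not tested.

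Replicate numbers are shared by the groups. Same-numbered libraries correlated from -0.12 (number 6) to 0.38 (number 4) in their deviations from the group means. On these values, and with 3 of 8 EAE libraries matching their own number best, the number was not used for pairing. With the replicate block the Flnc log2FC was 1.19 (SE 0.12), 1 partner gene, Hspb1, rose (edgeR adjusted p = 0.0483), and 3 fell, Hspa8, Actn2 and Drd2 (edgeR adjusted p = 0.0309, 0.0248 and 0.0477).

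The 21 correlations over all 16 libraries contain the difference that chose the pair, so neither they nor their alternatives (another pseudocount, a filter on markers of low level) are reported.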

Other observations

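In EAE without EAE 4, Flnc had r of 0.930 with the neuron marker sum (n = 7, exact permutation p = 0.00635, not adjusted), against 0.341 with it (n = 8, exact permutation p = 0.457), a relation noticed after seeing the data. In PBS r was 0.02 and rho was -0.10 (n = 8, exact permutation p = 0.968 and 0.840). EAE 6, EAE 7 and EAE 8 had the highest neuron sums in EAE, and their part in the relation was not tested.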
